A study of Mus musculus with 4 samples.

Results

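Genes of the actin cytoskeleton and of focal adhesions were read in cultured mouse keratinocytes in which Prdm1, the gene of the transcriptional repressor Blimp-1, could be deleted. The list held 39 genes chosen by name for their role. A probe set that names the gene alone was found for 37 of them, out of 12393 genes on the array, and the brightest such probe set stood for the gene. No probe set named Myh10, and the 2 probe sets of Arpc1b also name another gene, so both were dropped. Of the 37, 35 had a value of at least 20.04 intensity units, the median of the whole table, on at least 1 array and are called measured here, as are 7463 genes in all. Myl9 and Tagln stayed under that level on every array.

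Primary keratinocytes from the tail skin of C57BL/6 mice were compared in 4 groups of 1 array each. All of the mice carried a floxed Prdm1 gene, which the Cre recombinase can cut. CKO cells also had CreER, a recombinase that 4-hydroxytamoxifen (4OHT) switches on, and control cells lacked it. Cells of both kinds were grown without serum on plates coated with rat collagen I, received either 4OHT or ethanol (EtOH) between day 1 and day 3, and were harvested at day 5. The groups are called control or CKO by genotype and EtOH or 4OHT by treatment, and CKO 4OHT alone had both recombinase and inducer. Where 4 intensities are listed, they stand in the order control EtOH, control 4OHT, then CKO EtOH and last CKO 4OHT. The labels do not state the promoter of CreER, the floxed part of Prdm1 or the number of mice behind each culture. The genotypes were different mice, so genotype and animal cannot be told apart.

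Actin filaments form the contractile and protrusive skeleton of a cell. Myosin II pulls on them, tropomyosins and calponins stabilise them, the Arp2/3 complex branches them and cofilin severs them. At focal adhesions, proteins such as talin, vinculin and zyxin tie the filaments to integrins and so to the matrix, and keratinocytes use these links to spread and to migrate. Monomeric actin holds the cofactors of the serum response factor SRF in check, and SRF with these cofactors activates many actin and adhesion genes through a short DNA element called the CArG box.

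Values are RMA intensities on a linear scale, and differences are on the log2 scale. With 1 array in each group there was no replicate, no estimate of error and no test, and a difference of 2-fold (1 on the log2 scale) or 1.5-fold (0.58) was used only to count. Levels of different probe sets cannot be compared with each other. In these bulk samples fewer cells of a type and less RNA per cell cannot be told apart. The array medians lay between 19.95 and 20.22. Prdm1 had intensities of 20.7, 52.4, 17.0 and 6.43, and so was lowest in CKO 4OHT, at a level close to the floor. On both arrays with EtOH it was itself near the table median of 20.04. The 7 keratinocyte markers of a fixed list, among them Krt5, Krt14 and Trp63, were all measured, with summed intensities between 12567 and 13274. Krt14 (6437 to 6663) and Krt5 (3298 to 3774) made most of that sum, so it says little of the other markers. In CKO 4OHT, Itgb4 differed by 0.80 from CKO EtOH and by 0.805 from control 4OHT. For Itga6 these differences were 0.18 and 0.37, for Cdh1 -0.19 and -0.55, and for Trp63 -0.185 and -0.35. Krt5, Krt14 and Dsp differed by at most 0.13.

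Most of the actin and adhesion genes differed by less than 1.5-fold in the comparisons made. Of the 35 measured members, 28 stayed within 1.5-fold in all 4 of them. CKO 4OHT with control EtOH was not among these comparisons, and Lima1, counted in the 28, differed by -0.67 there. The count of 28 was not made over all measured genes, but most of those were level in each comparison as well. For CKO 4OHT against CKO EtOH, the median absolute difference was 0.21 for members and 0.20 for all measured genes. Against control 4OHT these medians were 0.28 and 0.22. By 1.5-fold, 0.59% to 6.69% of all measured genes were higher and 0.777% to 6.07% lower, depending on the comparison. A small set stood lower in CKO 4OHT. It held Acta2, the smooth muscle actin, Vcl, the focal adhesion protein vinculin, Zyx, the LIM protein zyxin of focal adhesions and stress fibres, and Cnn2, the calponin of non-muscle cells. These 4 genes were lower, with log2 differences of -1.16, -1.01, -0.91 and -0.80 from CKO EtOH and of -1.41, -0.99, -0.83 and -0.79 from control 4OHT. Ezr, which encodes the membrane linker ezrin, stood higher in CKO 4OHT by 0.60 and 0.50 by its brighter probe set, whereas the other one gave -0.07 and -0.11.

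**Figure D1:**
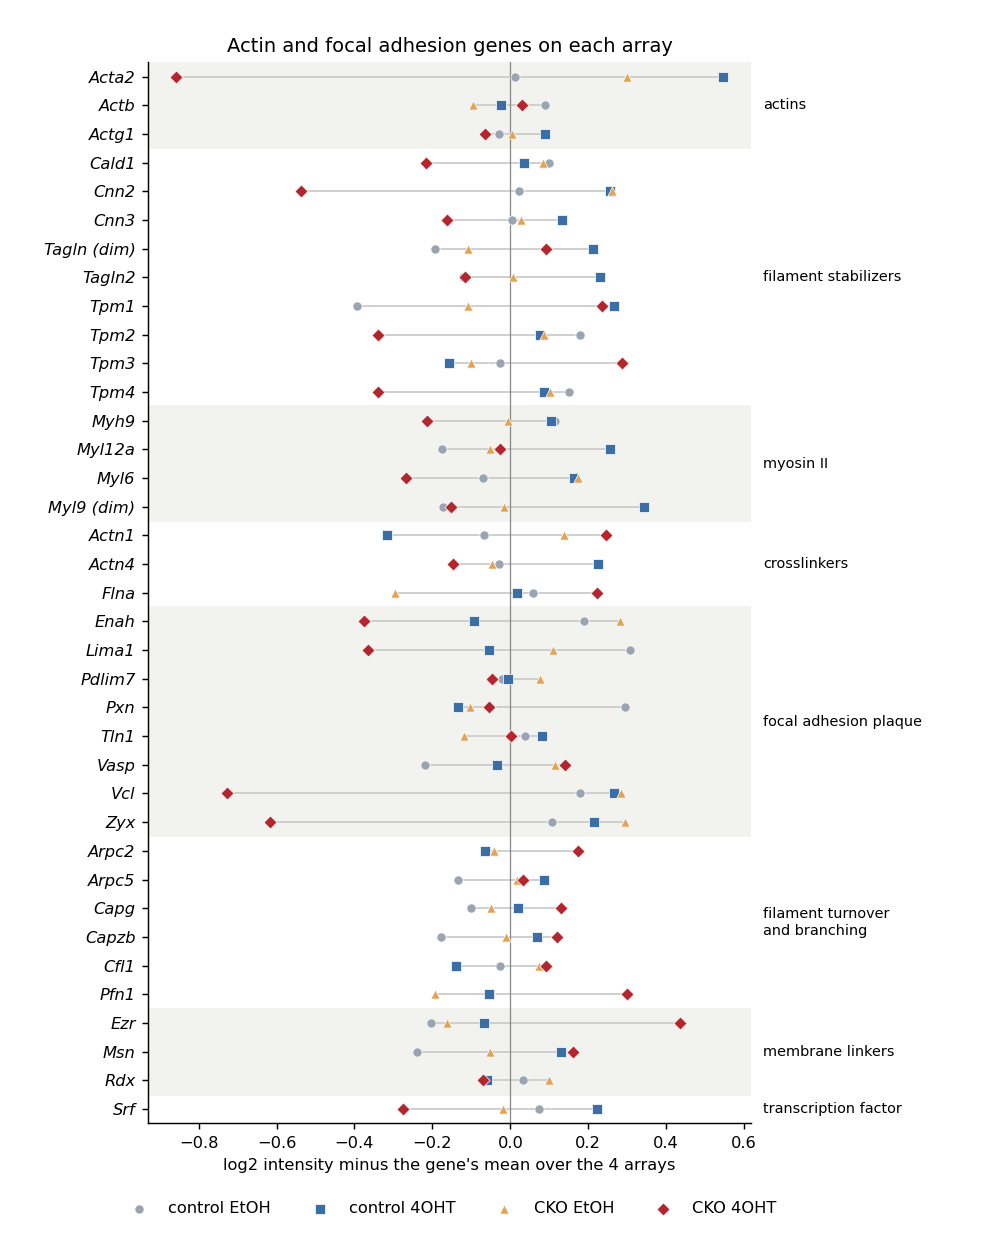
Level of each member on the 4 arrays, as log2 intensity minus the gene's own mean over the 4 arrays (horizontal axis), with the genes grouped by role and dim marking the members under the level filter. Each point is 1 array, and CKO 4OHT (diamonds) lies furthest to the left for Acta2, Vcl, Zyx and Cnn2 and furthest to the right for Ezr, Pfn1 and Tpm3.

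Acta2 read 155 and 225 in the control cultures with EtOH and 4OHT, and 189 and 84.8 in the CKO cultures. The last value lay 1.83-fold under the closest other array. Acta2 ranked 87th from the lowest of 7463 genes against CKO EtOH and 68th against control 4OHT. Its probe set is of a design that can also detect related transcripts. The second probe set of Acta2 did not show the difference, at 5.29, 6.75, 6.37 and 7.48, all near the floor. Acta2 is a gene of smooth muscle and myofibroblasts. The defining smooth muscle markers Myh11, Cnn1 and Actg2 were at most 9.61 on any array, and Des was at most 18.6. Of the 8 genes of the smooth muscle or pericyte list, Smtn and Cspg4 reached the level filter, and the summed level of the list was 136 to 145.5. Smtn, smoothelin, had 46.7, 58.1, 47.2 and 65.1. Of 10 fibroblast markers, Dcn and Fbln1 did, with Col1a1 and Col3a1 at most 7.90 and summed levels of 206, 234, 226 and 154. Most of that difference was Fbln1, which encodes the matrix protein fibulin-1, at 121, 142, 136 and 65.9. Cspg4, a proteoglycan of pericytes that keratinocytes can also express, was 36.3, 33.2, 37.1 and 21.7. None of 6 skeletal muscle and none of 6 endothelial markers reached the filter, with sums of at most 50.96 and 47.6. Of 6 melanocyte markers 4 did, with a sum of 101 to 129, highest in CKO 4OHT, and of 6 immune markers 1 did, with a sum of 68.5 to 70.6. The part of other cells in the Acta2 value was not tested.

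Vcl had intensities of 258, 274, 277 and 138. The other 3 arrays lay close together, and CKO 4OHT was 1.87-fold below the nearest of them. Its second probe set, dim at 19.6, 22.8, 21.3 and 13.2, gave differences of -0.69 against CKO EtOH and -0.79 against control 4OHT.

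Zyx had 294, 317, 335 and 178 in the same order, with CKO 4OHT 1.65-fold below the nearest array. Its second probe set had 45.4, 55.9, 45.9 and 32.1, again with the lowest value in CKO 4OHT.

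Cnn2, read by a single probe set, had 381, 448, 449 and 259, with CKO 4OHT 1.47-fold below the nearest array. The 3 arrays other than CKO 4OHT thus lay within a narrow band for Vcl, Zyx and Cnn2, and within a wider one for Acta2, which was also 0.54 higher with 4OHT in control cells.

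**Figure D2:**
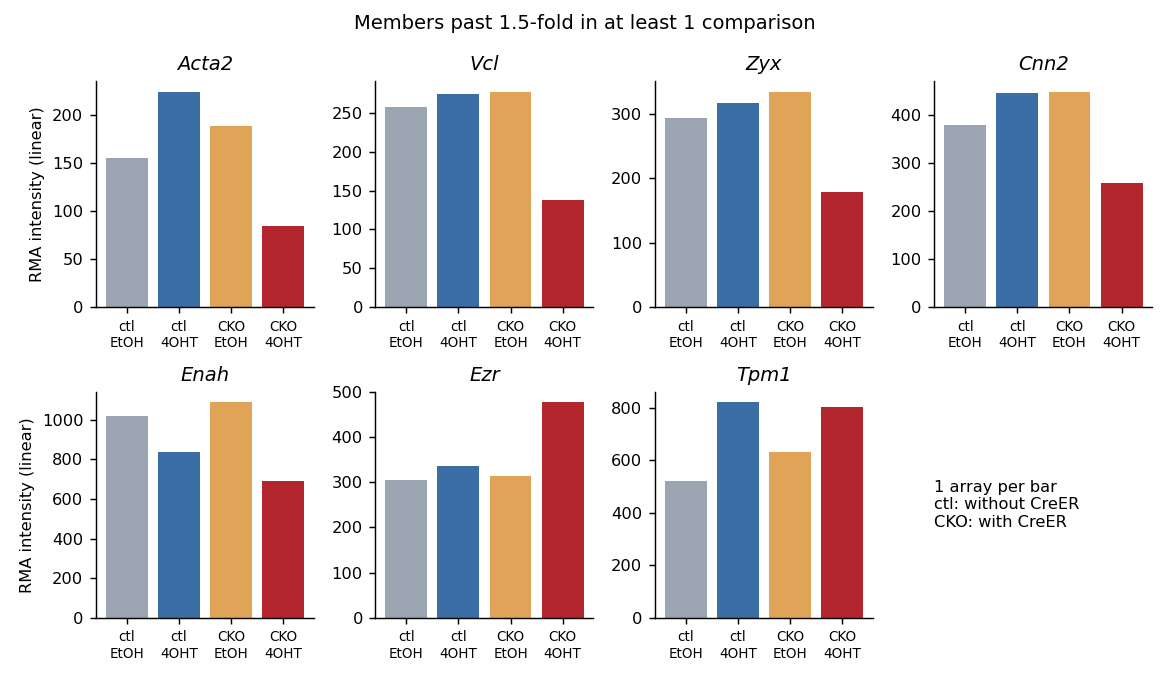
RMA intensity (linear scale, 1 array per bar) of the 7 measured members that differed by at least 1.5-fold in 1 of the 4 comparisons, with ctl for control cells. Acta2, Vcl, Zyx and Cnn2 have their lowest bar in CKO 4OHT, Ezr has its highest there, and Tpm1 is high on both arrays with 4OHT.

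Vcl and Cnn2 carry a CArG box in the promoter window held for mouse genes, a stretch from 250 bases before to 50 after the annotated start (RefSeq, build GRCm38.p6). Windows matched 36 of the 39 members by symbol, and Actb, Tagln and Pxn had none. An exact CArG box is CC, then 6 bases of A or T, then GG, which reads as a CArG box on both strands. The 250 bases before the start of Vcl and of Cnn2 are shown first, because these genes were lower in CKO 4OHT, 5′ to 3′ on the strand of the gene with the CArG box in capitals.
Vcl (chr14:20929148-20929397, plus strand): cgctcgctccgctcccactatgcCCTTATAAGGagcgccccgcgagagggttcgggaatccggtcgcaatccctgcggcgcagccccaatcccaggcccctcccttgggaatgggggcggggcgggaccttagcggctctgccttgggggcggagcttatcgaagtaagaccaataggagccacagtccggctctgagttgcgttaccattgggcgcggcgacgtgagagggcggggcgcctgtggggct
Cnn2 (chr10:79988350-79988599, plus strand): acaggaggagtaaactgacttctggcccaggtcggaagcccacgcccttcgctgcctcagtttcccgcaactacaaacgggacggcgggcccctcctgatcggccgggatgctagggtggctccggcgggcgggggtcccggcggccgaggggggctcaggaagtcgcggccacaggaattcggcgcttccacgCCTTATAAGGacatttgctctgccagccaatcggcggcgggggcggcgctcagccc

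The letters of the box are the same in both, CCTTATAAGG, and its first base lies 227 bases before the start in Vcl and 56 before it in Cnn2. Exact boxes were found in 7 of the 36 members (19.4%), against 1.81% of the 27025 genes with a window and 1.57% of 6097 measured genes with one. The other 5 members are shown as stretches of 30 bases with the box, so that the letters can be compared. Srf, whose own gene is a known SRF target, holds 2.
Srf, upstream box (chr17:46556225-46556254, minus strand): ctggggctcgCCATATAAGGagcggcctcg
Srf, downstream box (chr17:46556205-46556234, minus strand): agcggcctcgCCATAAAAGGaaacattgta
Actg1 (chr11:120348566-120348595, minus strand): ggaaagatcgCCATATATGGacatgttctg
Myl6 (chr10:128493040-128493069, minus strand): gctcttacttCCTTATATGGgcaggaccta
Lima1 (chr15:99820177-99820206, minus strand): ctcactttgtCCTTATAAGGctatcctgtt
Myl9 (chr2:156775293-156775322, plus strand): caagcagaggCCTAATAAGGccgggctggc

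Lima1 shares its box letters with Vcl and Cnn2, and the other boxes differ between the CC and the GG. Of these members, 6 were measured, and all 6 were below 0 both against CKO EtOH (median -0.46) and against control 4OHT (median -0.46). Vcl and Cnn2 had the lowest values, and a second probe set of Srf, given with that gene, was above 0 against CKO EtOH. Against CKO EtOH, Lima1 differed by -0.47, Myl6 by -0.44, Srf by -0.26 and Actg1 by -0.07. Against control 4OHT, the values were -0.31, -0.43, -0.50 and -0.15. The other 29 measured members include Actb and Pxn, which had no window and so could not be searched. Of the 29, 12 were below 0 against CKO EtOH (median 0.02) and 16 against control 4OHT (median -0.03). Over all measured genes, with or without a window, 48.6% and 47.8% were below 0. The 90 measured genes outside the members that hold an exact box were near these shares, at 45.6% and 51.1% (medians 0.02 and -0.02). Both comparisons share the CKO 4OHT array. The members and the motif were chosen with earlier results of these data known. The split by box is therefore a description, and a link of the box to these values was not tested. Acta2 and Zyx had no exact box in their windows, which says only that these letters are not in this stretch. A match is a description of the sequence and not a site shown to be used. The letters TATAAA, on either strand, were in the windows of 3 members, Srf, Myh9 and Cald1 (8.33% of 36), against 15.7% of all genes and 8.69% of measured genes with a window.

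Within cells that carry CreER, CKO 4OHT was set beside CKO EtOH to read the inducer. Of 35 members, none was higher and 2 were lower by 2-fold (Acta2 and Vcl), which is 5.71% where 1.86% of all measured genes were lower and 1.82% higher. At 1.5-fold 1 member was higher (Ezr, by 1 of its 2 probe sets) and 5 were lower (Acta2, Vcl, Zyx, Cnn2 and Enah). That is 2.86% and 14.3% of the members, against 5.71% and 5.48% of all measured genes. Beside the 3036 measured genes with a mean intensity of 100 or more, which hold 32 members including those counted, the background was 5.53% higher and 5.11% lower. The median of the members was -0.07, with quartiles of -0.36 and 0.13, and that of all measured genes was 0.01, with quartiles of -0.19 and 0.21. The list as a whole was thus near the centre of all genes, and 17 members lay above 0 and 18 below, where 48.6% of all measured genes lay below.

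Between the arrays with 4OHT, the cells with CreER were set beside those without it. By 2-fold 1 member was lower (Acta2, 2.86% of members) and none was higher, against 2.24% and 1.46% of all measured genes. By 1.5-fold 4 were lower (Acta2, Vcl, Zyx and Cnn2, 11.4%) and none was higher, against 6.07% and 6.69%. Among genes with a mean intensity of 100 or more, 5.76% were lower and 5.80% higher. Vcl, at -0.99, was just short of 2-fold here. The median of the members was -0.08 (all genes 0.01), with 22 members below 0 and 13 above, where 47.8% of all measured genes lay below. Actn1 was the highest member, at 0.56. Both comparisons use the CKO 4OHT array, so that the same genes appear in both is no separate evidence.

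No member lay 2-fold apart from all the other arrays in CKO 4OHT, against 0.75% of all measured genes above and 1.09% below. With a margin of 1.5-fold 3 members lay below (Acta2, Vcl and Zyx) and none above, against 3.20% and 2.51% of all genes. None of the other arrays had a member apart by 1.5-fold, but few of all measured genes were apart there. Those above and below numbered 16 and 13 in control EtOH, 66 and 18 in control 4OHT, and 1 and 2 in CKO EtOH. In CKO 4OHT they numbered 187 and 239. The lack of members apart on the other arrays therefore does not set the members off from all genes. CKO 4OHT was the lowest array for 17 of the 35 members (48.6%) and the highest for 11 (31.4%), where over all measured genes it was the lowest for 31.1% and the highest for 31.6%.

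The comparison of control 4OHT with control EtOH gave the drug without the recombinase. By 2-fold no member was higher or lower, against 1.27% and 0.241% of all genes. By 1.5-fold Tpm1, a tropomyosin that stabilises stress fibres, was higher (0.66) and none was lower, against 3.95% and 3.91%. The members' median was 0.09, and that of all genes was -0.04. The lowest member was Pxn, the adhesion scaffold paxillin, at -0.43.

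CKO EtOH against control EtOH, which differ by CreER without inducer and by animal, had no member past 2-fold or 1.5-fold. Of all measured genes 0.0536% were higher and 0% lower by 2-fold, and 0.59% were higher and 0.777% lower by 1.5-fold. The members ran from -0.40 for Pxn to 0.33 for Vasp around a median of 0.05. The widest member difference between these cultures was smaller than those of Acta2, Vcl, Zyx and Cnn2 in the comparisons of CKO 4OHT. Those 4 genes were named for their low values there, and this comparison had the smallest shares of all genes past 1.5-fold. Between the control cultures with 4OHT and EtOH, Tpm1 differed by 0.66 and Acta2 by 0.54. A single such pair of arrays does not measure the spread between replicates.

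**Figure D3:**
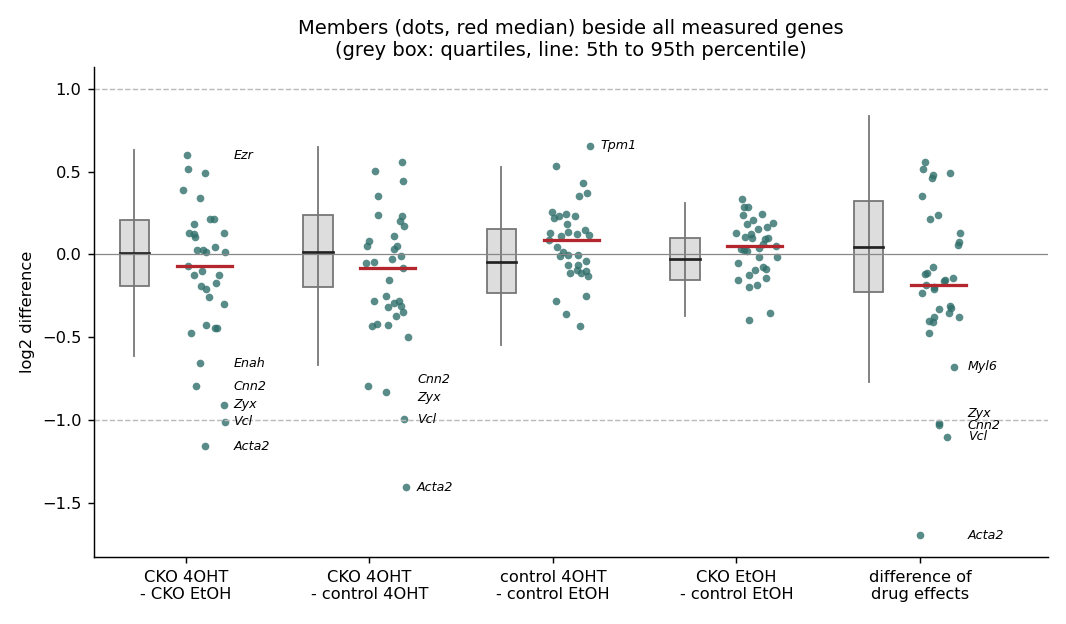
Log2 differences (vertical axis) of the 35 measured members (dots, with their median as a red line) beside the quartiles and the 5th to 95th percentiles of all 7463 measured genes, in the 4 comparisons and for the difference of the drug effects. The dashed lines mark 2-fold. The member medians run from -0.19 to 0.09, and Acta2, Vcl, Zyx and Cnn2 lie below the 5th percentile in both comparisons of CKO 4OHT.

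By role, the actins split. The cytoplasmic actins, which build most filaments of non-muscle cells, were level. Actb had 3867, 3578, 3399 and 3713, from control EtOH to CKO 4OHT. Actg1 had 4499.8, 4878, 4606 and 4386. Both stayed within 0.19 on the log2 scale in every comparison, and Acta2 alone of the actins differed by 2-fold. A second, dimmer Actb probe set had 31.2, 25.05, 22.4 and 17.8.

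The filament stabilizers had 8 measured members and medians of -0.25 against CKO EtOH and -0.32 against control 4OHT. The tropomyosins, which wrap around the filament, went separate ways. Tpm2 (1151, 1073, 1081 and 803 from control EtOH to CKO 4OHT) and Tpm4 (1147, 1096, 1109 and 817) were lowest in CKO 4OHT, by 0.43 and 0.44 against CKO EtOH. Tpm3 (755, 689.7, 717 and 938) was highest there, by 0.39 against CKO EtOH and 0.44 against control 4OHT, and its 3 other measured probe sets were higher by 0.28 to 0.76 and by 0.30 to 0.94. Tpm1 (519.7, 819, 633 and 803) was high on both arrays with 4OHT and lower on both with ethanol. Its second measured probe set had the same order, with 348, 478, 390.0 and 461.

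Cald1, caldesmon, which damps the action of myosin on actin, had 686, 656, 678 and 551. Cnn3, a calponin related to Cnn2, had 956, 1046, 973 and 852, and Tagln2, a transgelin of non-muscle cells, 694, 886, 759 and 697. By these probe sets Cnn3 and Cald1 were lowest in CKO 4OHT by less than 1.5-fold, and Tagln2 was near its control EtOH level. The order rests on the probe set, since the other measured ones of Cald1 were lowest in control 4OHT (0.14 and 0.08 against it), and that of Tagln2 was lowest in CKO 4OHT, at 368, 374, 346 and 261. Of 5 other measured Cnn3 probe sets, 3 were lowest in CKO 4OHT. Tagln, the smooth muscle transgelin, was dim, between 13.9 and 18.4.

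Myosin II, the motor of contraction, had 3 measured members, none past 1.5-fold. Myh9, the heavy chain of non-muscle myosin IIA, had 667, 662, 613 and 531, and its 3 other measured probe sets differed by -0.07 to -0.33 against CKO EtOH. Myl12a, a regulatory light chain, had 1025, 1382, 1117 and 1137 and was highest in control 4OHT. Its second, dimmer probe set was highest in CKO 4OHT, with 56.1, 63.8, 52.9 and 68.9. Myl6, the essential light chain, had 47.1, 55.3, 55.75 and 41.0 by the 1 probe set that names it alone. Another 2 probe sets of Myl6 also name other genes and were not used. Myl9, a regulatory light chain of smooth muscle, was between 11.4 and 16.4.

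Among the crosslinkers, which bundle or mesh filaments, Actn1 (alpha-actinin-1) had 937, 788, 1080.2 and 1163, Actn4 (alpha-actinin-4) had 768.5, 917, 759 and 708, and Flna (filamin A) had 204, 198, 159 and 228. The alpha-actinins ran opposite ways between the 4OHT arrays, at 0.56 and -0.37. Flna was highest in CKO 4OHT and lowest in CKO EtOH, a difference of 0.52. The 2 other Actn1 probe sets were also higher in CKO 4OHT, by 0.33 and 0.54 against CKO EtOH and by 0.41 and 0.38 against control 4OHT.

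The focal adhesion plaque, with 8 measured members, had medians of -0.30 against CKO EtOH and -0.18 against control 4OHT, and Vcl and Zyx made its low end. Tln1, talin, which binds integrins directly, had 51.7, 53.3, 46.4 and 50.45. Pxn had 715, 531, 543 and 561 and was highest in control EtOH, and its other measured probe sets were higher in CKO 4OHT by 0.14 and 0.58 against CKO EtOH and by 0.40 and 0.31 against control 4OHT. Vasp and Enah, relatives that bind zyxin and vinculin and promote filament growth, did not share a pattern. Vasp had 108.5, 123, 137 and 139.

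Enah had 1019.9, 839, 1088 and 689.7 and was lower in CKO 4OHT by 0.66 against CKO EtOH but by 0.28 against control 4OHT. Its second probe set gave -0.59 and -0.13, and another -0.11 and -0.13. Lima1, a LIM protein that crosslinks filaments, had 295, 229.8, 257 and 185 and was lower with 4OHT in both genotypes, but its 2 other measured probe sets were slightly higher with 4OHT in control cells (0.02 and 0.19). Pdlim7, a scaffold of stress fibres, had 106, 108, 114 and 105. By the probe sets used, talin, paxillin, Vasp and Pdlim7 thus differed by at most 0.17 in both comparisons of CKO 4OHT, whereas vinculin and zyxin differed by more.

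Of the 6 measured genes of filament turnover and branching none passed 1.5-fold in any comparison. Against CKO EtOH the median was 0.16, with Arpc5 at 0.01 and Cfl1 at 0.02. Their median difference from control 4OHT was 0.17. Pfn1, profilin, which feeds actin monomers to growing filaments, had 434, 433, 394 and 554, higher in CKO 4OHT by 0.49 and 0.35. Arpc2, a subunit of the Arp2/3 complex, had 1587, 1585, 1610.05 and 1869, and Arpc5, another subunit, 402, 469, 447.5 and 452.

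Cfl1, the severing protein cofilin, had 777, 719.7, 834 and 844, but a second probe set had 187, 187, 193 and 257, which is 0.41 and 0.46 higher in CKO 4OHT. The capping proteins Capg (450.0, 489.7, 466 and 529) and Capzb (571, 677, 642 and 702) each varied by less than 1.5-fold between any of the 4 arrays.

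The membrane linkers of the ezrin, radixin and moesin family tie filaments to the plasma membrane. Ezr had 306, 336, 315 and 477, with CKO 4OHT 1.42-fold above the nearest array. Its second probe set did not show this, with 144, 139.6, 136 and 129.7. Msn, moesin, had 389.9, 503, 444 and 515 and was higher with 4OHT in both genotypes, by 0.37 in control and 0.21 in CKO cells, or 0.58 and 0.55 by its second probe set. Rdx, radixin, had 172, 161, 180.1 and 160.1, and its other measured probe sets gave -0.47 and -0.36 against CKO EtOH and -0.04 and -0.17 against control 4OHT. The 3 relatives thus did not share a pattern.

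Srf, the transcription factor, had 74.55, 82.7, 70.0 and 58.6, which is lowest in CKO 4OHT. Its second measured probe set read otherwise, with 38.7, 56.9, 37.0 and 54.8, high on both arrays with 4OHT by 0.56 in control and 0.57 in CKO cells. Direction and size for Srf therefore rest on the probe set.

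The drug effects were set beside each other as CKO 4OHT minus CKO EtOH less control 4OHT minus control EtOH. This difference was -1.69 for Acta2, -1.10 for Vcl, -1.03 for Cnn2 and -1.02 for Zyx, and each of these 4 genes was lower with 4OHT in CKO cells. In control cells the drug effect was 0.54 for Acta2 and 0.23 for Cnn2. For Vcl (0.09) and Zyx (0.11) it was under 0.20, the median absolute difference of all measured genes in that comparison. Myl6 followed at -0.68. At the upper end stood Flna (0.56), Tpm3 (0.52), Pfn1 (0.49) and Pxn (0.48). The members' median was -0.19 and that of all measured genes 0.04. Of the members 24 lay below 0 and 11 above, where 45.3% of all measured genes lay below. Across the 35 members the drug effects in both genotypes, which share no array, had a Pearson correlation of -0.04 and a Spearman correlation of 0.02, and across all measured genes the values were 0.03 and 0.04. These are descriptions across genes, which are not replicates.

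**Figure D4:**
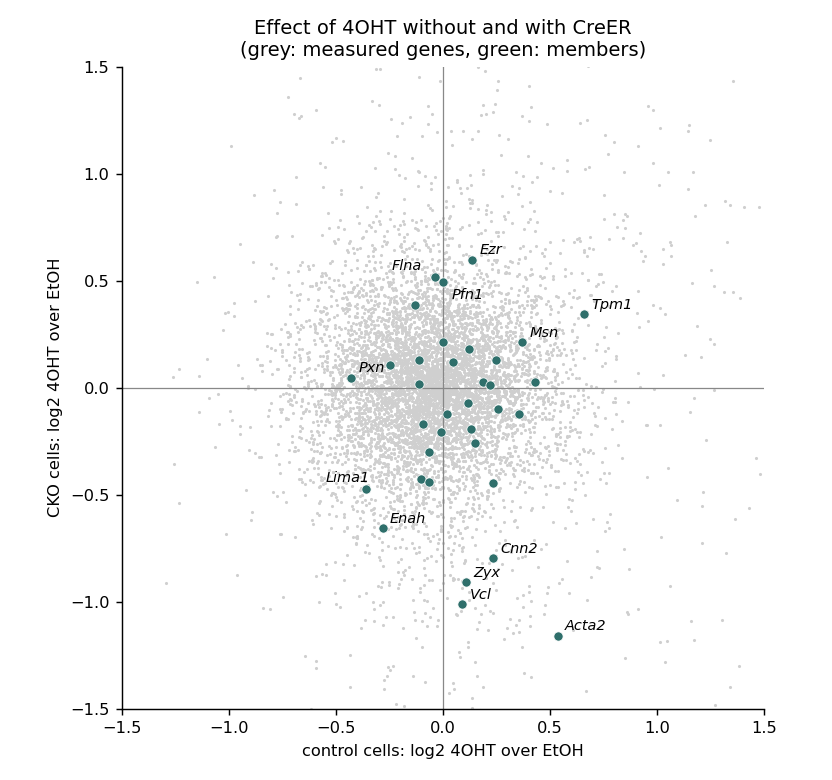
Log2 ratio of 4OHT over EtOH in control cells (horizontal axis) and in CKO cells (vertical axis) for the measured genes (grey; 104 lie outside the axes) and the 35 members (green). Acta2, Vcl, Zyx and Cnn2 lie in the lower right, Tpm1 and Msn are above 0 in both genotypes, and Enah and Lima1 below 0 in both, each by the probe set used.

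A further list of 74 genes of the same pathway held 62 with a probe set and 56 measured. Against CKO EtOH none was past 2-fold, 4 of the 56 were higher and 5 lower by 1.5-fold (5.71% and 5.48% of all measured genes), and the median was 0.02. Against control 4OHT 2 were lower by 2-fold (2.24% of all measured genes), 3 were higher and 4 lower by 1.5-fold (6.69% and 6.07%), and the median was -0.02. The 2 genes past 2-fold were Csrp1, a LIM protein of actin bundles, and Myo5a, an unconventional myosin that carries vesicles. Csrp1 had 326, 519, 486 and 245 from control EtOH to CKO 4OHT, differences of -0.99 and -1.08. Myo5a had 80.5, 101, 83.9 and 46.4, differences of -0.85 and -1.12. The other genes lower by 1.5-fold, named after their values were seen, were Myo6, Svil and Marcks against CKO EtOH and Myo6 and Rnd3 against control 4OHT.

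Among the cofactors of SRF, Mrtfa, which actin monomers bind, had 74.4, 66.9, 64.7 and 72.1, and Elk4, a partner of the ternary complex type, had 243, 209.7, 205 and 158. Of adhesion genes, Itgav, an integrin subunit, had 228, 247, 209 and 263 and Lims1, a LIM adaptor at adhesions, had 203, 187, 188 and 169.6. The thymosins, which hold actin monomers in reserve, differed little, with Tmsb10 at 2552, 2727, 2543 and 2914 and Tmsb4x at 2144, 2015, 2042 and 1706. The genes higher by 1.5-fold, again named after their values were seen, were Elk3 (0.93), Fhl2 (0.78), Parva (0.75) and Arpc4 (0.60) against CKO EtOH and Parva (0.82), Fhl2 (0.67) and Elk3 (0.62) against control 4OHT. Fhl2 and Parva encode adhesion proteins, but their subgroup of adhesion signalling and plaque genes, with 11 measured, was near level as a whole. Its median difference was 0.025 from CKO EtOH and 0.113 from control 4OHT. Itga5, Itgav, Itgb1 and Crk were also higher in CKO 4OHT in both comparisons, whereas Bcar1, Ilk, Src and Lims1 were lower in both. Whether adhesion genes of this list move opposite to Vcl and Zyx was not tested.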

How the data were processed

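RNA of 4 keratinocyte cultures was hybridised to the Affymetrix Mouse Expression Array 430A, 1 array per group. The values are linear intensities that the authors made with RMA for 22626 probe sets (2.66 to 7167.2), per the submitters' processing notes. RMA corrects background, normalizes between arrays and summarises probes, so a shift shared by most transcripts would be lost. No detection calls were in the table, and the number of arrays limits the precision.

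Log2 was taken without a pseudocount (Python 3.11.15, pandas 2.3.3). Of the probe sets, 20380 named 1 gene in the platform annotation, and the one of highest mean represented the gene. Differences, counts at 2-fold and 1.5-fold and medians were computed over all measured genes and read for the members. The counting was checked on simulated shifts. No test was run.

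The members, roles, further pathway genes, markers and motifs were chosen with earlier results of these data known. Values on the 4 arrays were to be given for members past 1.5-fold in a comparison and the 2 brightest of each role, and pathway genes were to be named when past 2-fold in CKO 4OHT or the 2 brightest of a subgroup; the other values were added for completeness. The brightest genes of 1 subgroup are not reported here. Promoter sequences are from RefSeq, build GRCm38.p6, matched by symbol.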

Additional observations from a re-analysis of the deposited data

Results flagged for a closer look

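Each of these genes was below 0 with 4OHT in CKO cells and above 0 with 4OHT in control cells, with drug effects at least 1 apart on the log2 scale. For Vcl and Zyx the effect in control cells was under 0.20, the median absolute difference of all measured genes there. The difference of the drug effects (CKO minus control) was -1.69 for Acta2 (-1.16 and 0.54), -1.10 for Vcl (-1.01 and 0.09), -1.03 for Cnn2 (-0.80 and 0.23) and -1.02 for Zyx (-0.91 and 0.11). Among the further pathway genes it was -1.66 for Csrp1 (-0.99 and 0.67), -1.18 for Myo5a (-0.85 and 0.32) and -1.14 for Myo6 (-0.63 and 0.51). These are 4 of 35 members and 3 of 56 further genes, where 355 of 7463 measured genes met the same criterion in either direction. The share of the further genes was thus near that of all measured genes. The flagged genes all went the same way, whereas the 355 hold both directions. With 1 array per group the differences were not tested.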

How the results depend on the processing

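The counts of members depend on the threshold, because few members differ by 2-fold. At 1.5-fold the members higher and lower were 1 and 5 against CKO EtOH, 4 were lower against control 4OHT, 1 was higher with 4OHT in control cells, and 3 lay apart on an array. With the mean of all probe sets of a gene, 0 members were lower by 2-fold in both comparisons of CKO 4OHT, since dim second probe sets pull Acta2 (-0.46 and -0.63) and Vcl (-0.85 and -0.89) below 2-fold. With probe sets that carry no _s, _x or _a suffix, 1 was lower against CKO EtOH and 0 against control 4OHT. Acta2 is then read by its probe set near the floor, and its sign turned, to 0.23 and 0.15. With each array centred on its median over measured genes, 2 members were lower against control 4OHT, as Vcl passed 2-fold; the array medians differ by at most 0.054. Under every setting run Vcl, Zyx and Cnn2 kept their sign in both comparisons, from -1.03 to -0.71. The median difference of the drug effects was -0.19 as reported, -0.20 without the level filter, -0.16 with the mean of probe sets, -0.16 with probe sets lacking a suffix and -0.27 after centring. The other medians of the members kept their sign, and the one against CKO EtOH ran from -0.10 to -0.07. No replicate could be left out and no paired analysis was possible because each group has 1 array, so no value here has an estimate of error.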

Other observations

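Outside the members, 90 measured genes had an exact CArG box in their promoter window, a set looked at after the values of the members were known. Of the 90, 1 was higher and 5 were lower by 2-fold against CKO EtOH, and none was higher and 5 were lower against control 4OHT, where 1.86% and 2.24% of all measured genes were lower. At 1.5-fold 8 were higher and 7 lower (5.71% and 5.48% of all measured genes), and 6 were higher and 9 lower (6.69% and 6.07%). Of the same genes, 41 were below 0 against CKO EtOH (median 0.02) and 46 against control 4OHT (median -0.02), where 48.6% and 47.8% of all measured genes were. Those lower by 2-fold were Ampd3, Cbr2, Fhl1, Ints6l and Stbd1 against CKO EtOH. Against control 4OHT they were Aqp9, Arrdc4, Cbr2, Fhl1 and Stbd1. Stbd1 was the lowest against CKO EtOH (-1.51) and Arrdc4 against control 4OHT (-1.64). Fhl1, a LIM protein of muscle and of other adherent cells, read 90.7 and 75.01 in the control cultures with EtOH and 4OHT and 73.4 and 28.5 in the CKO cultures, differences of -1.37 and -1.40 in CKO 4OHT against CKO EtOH and control 4OHT. Cbr2, a carbonyl reductase, had 169, 187, 208 and 85.8, and Ampd3, an AMP deaminase, 472, 448, 522 and 242. Hopx, a homeodomain protein of differentiating keratinocytes, stood higher, with 1336, 2323, 1676 and 3714, and was the only one of the 90 that was 2-fold higher in a comparison of CKO 4OHT. Genes with these letters in their windows thus lay on both sides of 0, and whether SRF acts on any of them was not tested.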
